A study of Rattus norvegicus with 8 samples.

Results

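Mono-(2-ethylhexyl) phthalate (MEHP) is the active metabolite of the plasticizer DEHP. Expression was compared between fetal rat testes cultured with 10 µM MEHP and a vehicle pool on 6 of the 8 arrays of the series, which were chosen by their titles and hold 3 of its 4 MEHP-treated testes. Each testis was explanted in mid-gestation, around the onset of androgen synthesis, cultured whole for 72 h and came from a different litter. The vehicle, DMSO, was also in the MEHP medium. The vehicle sample was a single pool of RNA from 3 testes of 3 litters, and the same pool was hybridized on all arrays. Each testis was hybridized on 2 arrays with the dyes exchanged, which are a first and a repeat hybridization of the same RNA and were counted as 1 replicate. The other 2 arrays hold 1 testis at 1 µM MEHP against the same pool, and its values are given beside those at 10 µM without a test. The control RNA is thus 1 sample, and the test of a ratio against 0 leaves out the spread between control testes.

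In the fetal testis, Leydig cells make androgens from cholesterol through the carrier Star and the enzymes Cyp11a1, Hsd3b, Cyp17a1 and Hsd17b3, and secrete insulin-like factor 3, which is needed for testis descent. Sertoli cells surround the germ cells in cords, secrete anti-Müllerian hormone and inhibin, and signal to the interstitium through desert hedgehog. A whole explant holds all of these cells together with peritubular, endothelial and blood cells. Fewer cells of a type and less RNA per cell cannot be told apart in such a sample.

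The 3 testes were not measured equally well. On the arrays of testes 1 and 3, the MEHP channel rose well above background at between 7.80% and 26.4% of the 43379 spots. The vehicle channel did so at between 9.23% and 31.9% of spots over all 6 arrays. In the MEHP channel of testis 2 these shares were 0.249% on the first array and 1.54% on the repeat. The E1A spike-in spots, which report RNA added at labelling, had a median signal of 394 and 2428 units in that channel, against 23185 to 132136 units in the MEHP channels of the other testes. Signals of that channel were also capped at about 65270 units, a limit that lay between 626376 and 672059 units in the MEHP channels of testes 1 and 3. All results are therefore given with the 3 testes and with testes 1 and 3 only.

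**Figure D1:**
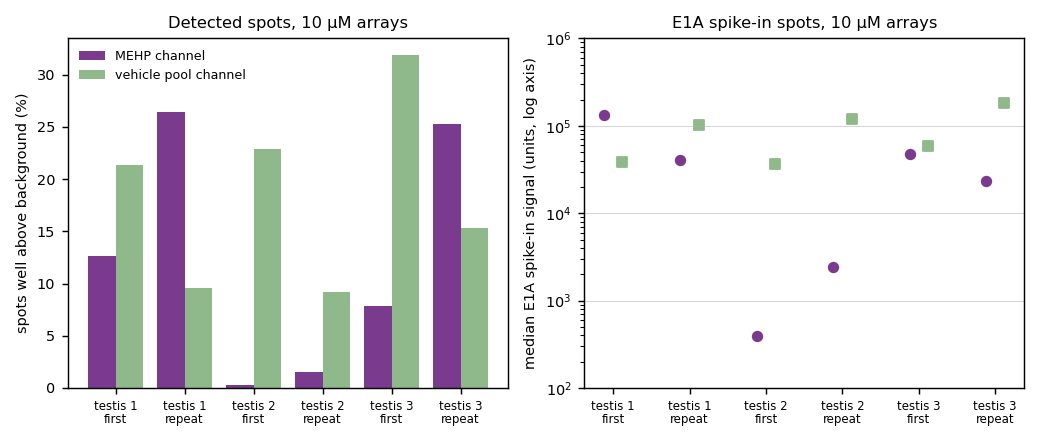
Left, percent of spots well above background in the MEHP and vehicle pool channels of each array at 10 µM. Right, median signal of the E1A spike-in spots on a log axis. Both MEHP channels of testis 2 lie at or below 1.54% of spots and 2428 units, below every other channel shown.

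The labels place MEHP on Cy3 on every array, but according to the methods the dyes of a pair were swapped. Over 2669 bright probes, the red over green ratios of the first and repeat arrays correlated at r = -0.79 in testis 1 and r = -0.83 in testis 3, as an exchange would give. The channel taken as the vehicle pool was also the more alike between testes 1 and 3, with r = 0.986 against 0.926 for the MEHP channel on the first arrays and 0.980 against 0.964 on the repeats. MEHP was therefore read as green in the first hybridization and red in the repeat. All ratios below are log2 of MEHP over the vehicle pool.

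Of 41012 probes, 10001 were tested with limma against 0, namely those that a minimum of 3 of the 6 arrays detected well above background with either dye. With the 3 testes, 227 probes (2.27%) passed a Benjamini-Hochberg adjusted p of 0.05, of which 38 (0.38%) were higher and 189 (1.89%) lower with MEHP. With testes 1 and 3, 1689 (16.9%) passed, 725 (7.25%) higher and 964 (9.64%) lower. Of the 227 probes, 216 were also called in the same direction without testis 2 and 0 in the opposite direction. After median centring of each array the split was 97 higher and 106 lower for the 3 testes, and 1412 higher and 1339 lower for testes 1 and 3. The 3-testis calls were lost with loess normalization (0 calls, 1657 probes at an unadjusted p of 0.05) and with slide as a block (0 calls, 944 probes). Testes 1 and 2 shared a slide and testis 3 lay on another. Both sets of calls fell to 0 when the pool was given the spread of the treated testes, where 56 and 1030 probes passed an unadjusted p of 0.05.

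Testis 1 had a median ratio of 0.09 over these probes, testis 2 of -1.14 and testis 3 of -0.20. The share of probes below 0 was 45.2%, 91.4% and 56.9%. Most probes of testis 2 were thus low, and a fall with the 3 testes is to be read against that shift. In testes 1 and 3 together, 3805 probes were below 0 in both, 3589 were above 0 in both, and 2603 had opposite signs. A change of at least 2-fold in both was seen for 622 probes that were lower and 537 that were higher.

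**Figure D2:**
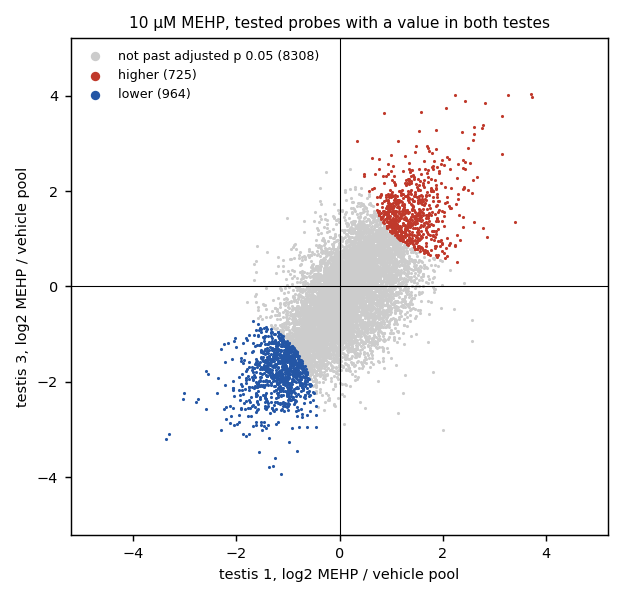
Each point is a tested probe, with its log2 ratio of 10 µM MEHP over the vehicle pool in testis 1 on the x axis and in testis 3 on the y axis. The 725 higher and 964 lower probes at an adjusted p of 0.05 (limma, testes 1 and 3) are coloured and lie in the upper right and lower left.

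Among genes of the Leydig cell, transcripts for Cyp17a1 and Insl3 were lower in testes 1 and 3. In testis 2, where MEHP was well above background on neither array for either gene, their values have the sign of most probes. Cyp17a1, the enzyme with 17-hydroxylase and 17,20-lyase activity, was measured at log2 ratios of -2.22, -1.60 and -2.07 in the 3 testes, in the order 1, 2 and 3 that is kept below. It fell 3.90-fold with the 3 testes (SD 0.32 on the log2 scale, limma adjusted p = 0.0401) and 4.42-fold with testes 1 and 3 (SD 0.11, adjusted p = 0.00816). It was below 0 on all 6 arrays, with MEHP detected well above background on 2 of the 4 that hold testes 1 and 3. With normexp background correction and loess, the mean over the 3 testes was -0.26 and the call was lost (adjusted p = 0.377, over its alternatives 0.00816 to 0.849). Insl3, the descent hormone, had ratios of -1.53, -2.23 and -1.58. It did not pass with the 3 testes (adjusted p = 0.0598) and fell 2.94-fold with testes 1 and 3 (SD 0.03, limma adjusted p = 0.0164). That call held with loess, at a mean of -0.62 (adjusted p = 0.0383, over its alternatives 0.000658 to 0.271). In the testis at 1 µM, Cyp17a1 was at -1.10 and Insl3 at -1.81.

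Of 25 Leydig cell genes listed, 16 were tested. With testes 1 and 3, 5 of them (31.2%) fell, 3 rose and 8 did not pass. Over all 4783 tested genes taken with 1 probe each, 432 (9.03%) fell and 313 (6.54%) rose. With the 3 testes 86 of the 4783 genes fell and 4 rose, and of the 16 only Cyp17a1 passed. The other falls with testes 1 and 3 were those of Dbi, Fdx1 and Hsd3b2. Dbi, the acyl-CoA-binding protein, had ratios of -1.09 and -1.74 in testes 1 and 3 and fell 2.67-fold (limma adjusted p = 0.0232). Fdx1, the ferredoxin that passes electrons to Cyp11a1, had ratios of -0.59 and -2.29 and fell 2.71-fold (adjusted p = 0.0405). Hsd3b2, which the array names Hsd3b1, was not well above background with MEHP on any array. Its signal there is only known to lie under the lowest signal well above background, and against that it was at least 1.22-fold lower (limma adjusted p = 0.0186).

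Several steroid genes went in opposite directions in testes 1 and 3. Star, which brings cholesterol into mitochondria, was at 1.27 in testis 1 and -1.86 in testis 3. Hsd17b3, which makes testosterone, was at 0.26 and -1.32. Scarb1, the lipoprotein receptor for cholesterol uptake, was at 1.46 and -0.04. These spreads were larger than the means, and none of the 3 genes passed. The electron donors of Cyp17a1 also did not pass, with Cyb5a at -0.62 and -1.16 and Por at -0.04 and -1.27. A second 3-beta-hydroxysteroid dehydrogenase probe, named Hsd3b1, was at -0.33 and -2.27, so testis 3 was low in most of these genes and testis 1 was not. Fdxr was at 0.25 and -0.42, and Hsd11b1 at 0.05 and -0.49.

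The 3 genes of the list that rose with testes 1 and 3 are not steroid enzymes. Nr2f2, a nuclear receptor of interstitial progenitors, was at 1.52 in both testes, a rise of 2.87-fold (limma adjusted p = 0.0173). Pdgfra, a growth factor receptor of interstitial cells, was at 1.33 and 1.53 and rose 2.70-fold (adjusted p = 0.0203). Nr4a1, an immediate early nuclear receptor, was at 1.87 and 0.66 and rose 2.40-fold (adjusted p = 0.0441). All 3 were below 0 in testis 2, at -1.47, -1.31 and -1.16. Cyp11a1, Nr5a1, Lhcgr, Srd5a1, Srd5a2, Tspo, Akr1c14 and Hsd3b5 were on the array and were too dim to be tested. Cyp11a1 was well above background on 1 of 6 arrays in the vehicle channel and on 0 in the MEHP channel.

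Of the lists used here, that of Sertoli cell genes had the lowest median over the mean of testes 1 and 3, at -0.84. Per testis the median of its 14 tested genes was -0.66, -2.01 and -1.29, against 0.08, -1.29 and -0.24 over all tested genes. With testes 1 and 3, 6 of the 14 fell (42.9%) and 0 rose, against 9.03% and 6.54% over all tested genes. With the 3 testes, 3 fell. Both channels were well above background on all 4 arrays of testes 1 and 3 for 6 genes of the 14. Their median was -0.79, and 1 of them fell with testes 1 and 3. Rhox5, a homeobox gene of Sertoli cells, was at -2.54, -2.36 and -1.84 and fell 4.74-fold with the 3 testes (limma adjusted p = 0.018). Aard, a gene of early Sertoli cells, was at -1.44, -2.94 and -2.51 and fell 4.92-fold (adjusted p = 0.0167). Kitlg, the ligand of the germ cell receptor Kit, was at -1.81, -1.96 and -1.93 and fell 3.73-fold (adjusted p = 0.0445).

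Dhh, Inhbb and Ptgds fell with testes 1 and 3 only. Dhh, the hedgehog signal from Sertoli to interstitial cells, was not well above background with MEHP on any array. The approximate bound on its fall was 1.36-fold, and its ratios were -0.92 and -2.19 in testes 1 and 3 (limma adjusted p = 0.0235). The 2 arrays of testis 1 had opposite signs for it, at -2.28 and 0.44, and 3 of the 4 arrays detected vehicle well above background. Inhbb, the inhibin beta B subunit, was at -0.77 and -1.82 and fell 2.45-fold (adjusted p = 0.0372), while another probe of the gene had a mean of 0.28 (adjusted p = 0.62). Ptgds, the prostaglandin D synthase, was at -1.68, 0.02 and -1.34 in testes 1, 2 and 3 and fell 2.85-fold in testes 1 and 3 (adjusted p = 0.0179). Amh was at -0.19, -2.08 and -1.40, Inha at -0.83, -2.09 and -0.86, and Gata4 at -0.43, -0.58 and -0.39, and none passed. Sox9, the factor that specifies Sertoli cells, was the 1 gene of the 14 above 0 in both testes, at 1.10 and 0.41. Ctsl was measured by 2 probes that differed. The brighter was at -0.33, -2.19 and -0.46 and did not pass, whereas the other was at -1.16, -3.02 and -2.44 and fell 3.48-fold with testes 1 and 3 (adjusted p = 0.0164).

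**Figure D3:**
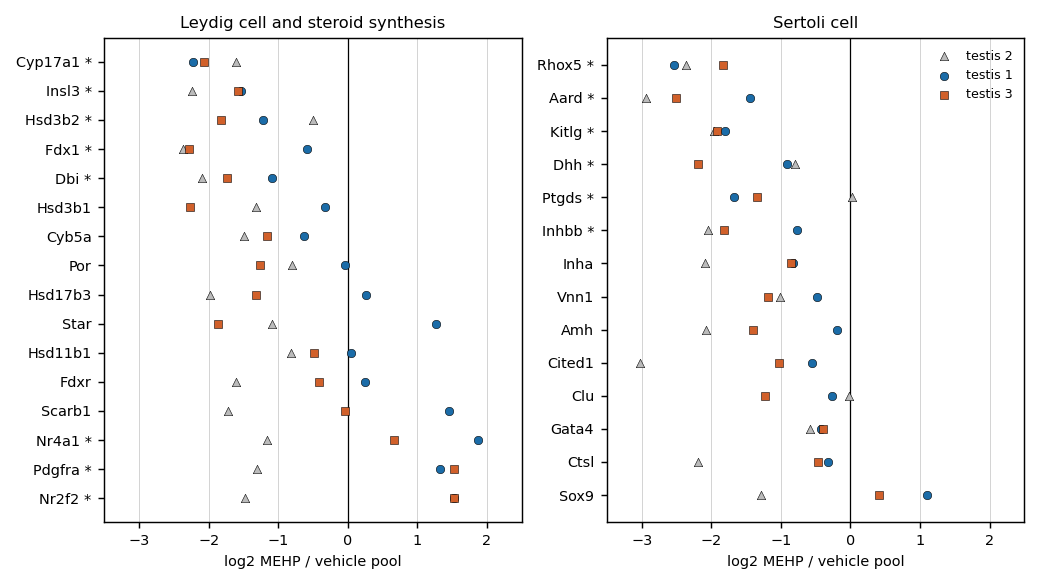
Log2 ratio of 10 µM MEHP over the vehicle pool for each tested Leydig cell gene (left) and Sertoli cell gene (right), with 1 symbol per testis. An asterisk marks an adjusted p under 0.05 with testes 1 and 3 (limma). Of the Leydig genes 5 were lower and 3 higher, and of the Sertoli genes 6 were lower and 0 higher.

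The promoters of the genes that fell were read for AGGTCA, the site to which many nuclear receptors bind as monomers or dimers, on both strands of the 250 bases before the RefSeq start of each gene in GRCr8. It was present in 14.1% of 33469 promoters. Of the tested Leydig genes with a promoter in the table it was in 3 of 11, and of those that fell in 2 of 4. For Sertoli genes these numbers were 3 of 8 and 1 of 4. The 3 genes that fell and hold the letters are printed below with the site in capitals, because Insl3 and Fdx1 are among the Leydig genes lowest with MEHP and Ptgds is the Sertoli gene of the 3. Each is written 5′ to 3′ on the strand of its gene, and the capitals read TGACCT where the site is on the other strand. Fdx1 is on the minus strand (chr8:61183646-61183895), Insl3 on the plus strand (chr16:18432939-18433188) and Ptgds on the minus strand (chr3:28682979-28683228).
Fdx1: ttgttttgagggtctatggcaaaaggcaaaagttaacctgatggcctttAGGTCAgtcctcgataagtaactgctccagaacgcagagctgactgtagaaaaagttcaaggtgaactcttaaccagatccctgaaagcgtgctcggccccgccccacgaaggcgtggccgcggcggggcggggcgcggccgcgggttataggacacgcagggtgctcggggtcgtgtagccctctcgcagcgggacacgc
Insl3: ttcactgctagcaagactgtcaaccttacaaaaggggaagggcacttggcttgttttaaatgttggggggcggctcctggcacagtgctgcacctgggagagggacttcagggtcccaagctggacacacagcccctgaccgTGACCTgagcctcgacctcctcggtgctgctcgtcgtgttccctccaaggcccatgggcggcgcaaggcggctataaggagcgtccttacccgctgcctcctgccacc
Ptgds: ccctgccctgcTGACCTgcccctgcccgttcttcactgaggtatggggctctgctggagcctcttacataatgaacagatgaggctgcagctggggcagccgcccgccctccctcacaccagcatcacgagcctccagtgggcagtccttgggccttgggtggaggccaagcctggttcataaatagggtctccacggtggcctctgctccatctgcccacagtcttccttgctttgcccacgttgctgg
The site begins 201 bases before the start of Fdx1, 108 before that of Insl3 and 239 before that of Ptgds. A match of 6 letters is a description of the sequence, and binding was not measured.

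The largest falls over all genes with 1 direction on all 6 arrays were led by genes outside the steroid pathway. Tsx, a testis-specific X-linked gene, was at -3.30, -2.23 and -3.09 in testes 1, 2 and 3. It fell 7.31-fold with the 3 testes (limma adjusted p = 0.00157) and 9.14-fold with testes 1 and 3 (adjusted p = 0.00212). It was at -1.07 at 1 µM. Aldh1a1, a retinaldehyde dehydrogenase, was the most even by testis mean, at -2.58, -2.53 and -2.57, and fell 5.90-fold (SD 0.03, adjusted p = 0.00638). Its 2 arrays of testis 1 were less alike, at -3.08 and -2.08, and in testis 2 MEHP was well above background on neither array. The other named falls were those of Itm2a (6.08-fold), Rbbp7 (6.04-fold), Rack1 (6.01-fold), Cst8 (5.68-fold), Prdx4 (5.56-fold), Nck1 (5.44-fold), Eef1a1 (5.34-fold) and Cd59b (5.33-fold), with limma adjusted p between 0.0063 and 0.0128. Rack1 is a ribosome-bound scaffold, Rbbp7 a histone-binding protein, Cst8 a cystatin of the male tract and Cd59b an inhibitor of complement. In Itm2a and Eef1a1, testis 1 was at -1.26 and -0.83, less low than testis 3 at -3.59 and -3.45. MEHP was detected well above background on only 1 of the 4 arrays of testes 1 and 3 for Tsx, and for Aldh1a1, Rbbp7, Cst8, Prdx4, Nck1 and Cd59b on 2.

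Where both channels were well above background on all 4 arrays of testes 1 and 3, the largest falls were those of Rack1 (4.59-fold), Rpl5 (4.43-fold), Eef1a1 (4.40-fold), Ndufb11 (4.15-fold), Aard (3.93-fold), Rab5if (3.75-fold), Ctsl (3.48-fold), Rps14 (3.38-fold), Calm2 (3.28-fold) and Uqcrc2 (3.11-fold). All had limma adjusted p between 0.00825 and 0.0227 with testes 1 and 3, and all passed with the 3 testes as well. The fit of the 3 testes holds the same 2 testes and is not a separate test. Testis 2 had a median of -1.96 over all probes that meet this condition. Of the genes just named, MEHP was well above background in testis 2 only for Rps14, on 1 array. Rpl5 and Rps14 are ribosomal proteins, Ndufb11 and Uqcrc2 are subunits of respiratory complexes I and III, and Calm2 is a calmodulin. Another probe of Rpl5, the brightest of its 3, was at -0.37, -2.43 and -1.03 and did not pass (adjusted p = 0.179 with testes 1 and 3). Among the 2669 probes measured this well, 221 were higher and 149 lower with testes 1 and 3.

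The largest rises under the same condition were those of Rpl37 (6.15-fold), Irf7 (5.40-fold), Bmp1 (5-fold), Bco1 (4.41-fold), Irf3 (4.10-fold), Ier5l (3.91-fold), P3h3 (3.80-fold), Tns2 (3.79-fold), Snrnp70 (3.73-fold) and Pdgfrb (3.71-fold). Their limma adjusted p lay between 0.00579 and 0.0121. Irf7, an interferon response factor, was at 2.38 and 2.48 in testes 1 and 3 and at 2.29 in the testis at 1 µM. Irf3, the factor that starts the same response, was at 1.85 and 2.22, and at 0.45 at 1 µM. Bmp1, which cleaves procollagens, was at 1.99 and 2.66, P3h3, a collagen prolyl hydroxylase, at 2.39 and 1.46, and Pdgfrb, a receptor of mesenchymal cells, at 1.62 and 2.17. Irf7, Bmp1, Irf3, Ier5l, P3h3, Tns2, Snrnp70 and Pdgfrb were below 0 in testis 2, between -1.96 and -0.19, and did not pass with the 3 testes. These 8 calls were kept with normexp and loess, among 26 of the 68 named genes called with testes 1 and 3 only. Another probe of Tns2 had a mean of -0.09 (limma adjusted p = 0.881). Dimmer probes of Bmp1 and Ier5l had means of 1.02 and 0.83 and did not pass (adjusted p = 0.0626 and 0.123).

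**Figure D4:**
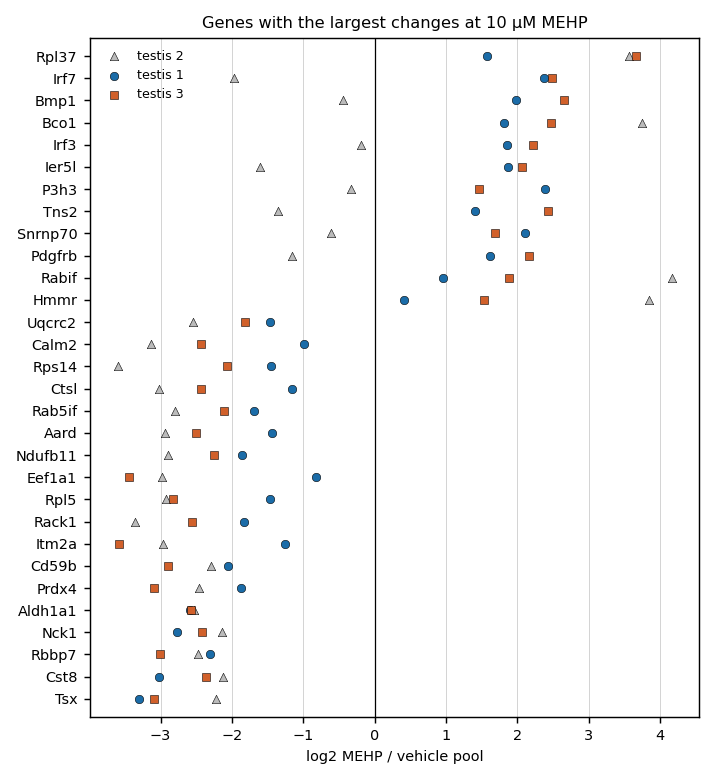
Log2 ratio of 10 µM MEHP over the vehicle pool in each testis for the genes with the largest rises and falls, with 1 symbol per testis. All falls are below 0 in the 3 testes. Of the rises, Rpl37, Bco1, Rabif and Hmmr are above 0 in testis 2, and the other 8 are below 0.

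The 4 named genes that passed as higher with the 3 testes were Rpl37, Bco1, Rabif and Hmmr. Rpl37, a ribosomal protein, was at 1.57, 3.56 and 3.67 and passed at 7.65-fold (limma adjusted p = 0.00138). Bco1, which cleaves beta-carotene to retinal, was at 1.81, 3.75 and 2.47 and passed at 6.39-fold (adjusted p = 0.00586). Rabif was at 0.96, 4.16 and 1.88 and passed at 5.05-fold, and at 2.68-fold without testis 2 (adjusted p = 0.0167 and 0.0256). Hmmr was at 0.41, 3.85 and 1.54 and passed at 3.82-fold, but without testis 2 it was 1.97-fold higher and did not pass (adjusted p = 0.0457 and 0.0942). Testis 2 was the highest of the 3 in 25 of the 38 probes called higher. For 36 of the 38, the background-subtracted signal of its first array was lower with MEHP than with vehicle before dye normalization, which turned the order. On both arrays this was so for 12 of the 38. For Rpl37 the signal of the first array was 30.8 units with MEHP and 253 with vehicle, and after dye normalization 6162 and 1668 units. On the repeat it was 122 and 56.2 units before and 9111 and 241 units after. Rabif had 3 tested probes. A second one also passed, at 0.90, 4.24 and 1.52 (adjusted p = 0.0248), and the last, where 1 of the 6 arrays detected MEHP, was at -0.27, -0.63 and -0.41. A probe named Rpl37 on the array, matched to Rpl37l1, was at 0.50, -0.49 and 0.27.

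Genes of energy metabolism and protein synthesis were below the median of all genes in both well-measured testes. Over all tested genes, 9.03% fell and 6.54% rose with testes 1 and 3. Of 68 respiratory chain and ATP synthase genes tested, 20 (29.4%) fell and 0 rose with testes 1 and 3, and 8 fell with the 3 testes. Their medians were -0.53, -1.93 and -0.79. Atp5f1b, the catalytic beta subunit of ATP synthase, was at -1.57, -2.20 and -3.46 and fell 5.31-fold with the 3 testes (limma adjusted p = 0.0126). The rotor subunit Atp5mc3 fell 4.59-fold (adjusted p = 0.0217), and the central stalk subunit Atp5f1c fell 5.09-fold (adjusted p = 0.0142).

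Of 23 citric acid cycle and aspartate shuttle genes, 8 (34.8%) fell with testes 1 and 3 and 0 rose, with none passing with the 3 testes. Mdh1, cytosolic malate dehydrogenase, fell 3.26-fold (limma adjusted p = 0.0175), Idh3a 2.85-fold (adjusted p = 0.0222) and Pdhb 2.70-fold (adjusted p = 0.0264). Mitochondrial Mdh2 was lower by an approximate bound of 1.19-fold, with MEHP not well above background on any array and vehicle on 2 of the 4. Of 17 glycolysis genes 6 (35.3%) fell. Ldha, lactate dehydrogenase A, fell 4.64-fold and Pgk1 3.71-fold with testes 1 and 3, whereas Eno2, the neuronal enolase, rose 2.81-fold (limma adjusted p = 0.00871, 0.0147 and 0.0208). Only 1 of the 4 arrays detected MEHP well above background for Ldha, Pgk1, Idh3a and Pdhb, so their fall sizes are uncertain. Ldha was the 1 glycolysis gene that passed with the 3 testes (adjusted p = 0.0397).

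Of 79 cytosolic ribosomal protein genes, 13 (16.5%) fell and 1, Rpl37, rose with testes 1 and 3. Of the 79, 58 were below 0 in both testes, against 1896 of all 4783 tested genes. Rpl3 was at -1.77, -2.31 and -2.72 and fell 4.82-fold with the 3 testes (limma adjusted p = 0.0171). Rplp0 was at -2.12, -0.71 and -2.51 and fell 4.98-fold with testes 1 and 3 (adjusted p = 0.00654). Of 46 translation factor genes 11 (23.9%) fell and 0 rose. Eif3e fell 4.21-fold (adjusted p = 0.0317) and Eif1a 3.83-fold (adjusted p = 0.0422) with the 3 testes. For Eif1a, MEHP was well above background on only 1 of the 6 arrays, so the size of its fall is uncertain. Ribosomal protein genes have many near-identical pseudogenes, and cross-hybridization was not tested.

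Of 43 proteasome genes 10 (23.3%) fell and 1 rose with testes 1 and 3. Psmb1, a subunit of the catalytic core, was at -1.42, -2.49 and -2.97 and fell 4.90-fold with the 3 testes (limma adjusted p = 0.0167). Psmb6, Psmb7 and Psmd8 fell between 2.80-fold and 3.59-fold with testes 1 and 3. Of 46 chaperone genes 6 (13.0%) fell, near the 9.03% over all tested genes. Cct4 and Cct5 are subunits of the cytosolic chaperonin that folds actin and tubulin. Cct4 fell 4.40-fold (adjusted p = 0.0273) and Cct5 4.09-fold (adjusted p = 0.0352) with the 3 testes. Of 41 actin, tubulin and intermediate filament genes 6 (14.6%) fell, among them Tuba1c, 3.28-fold lower with testes 1 and 3 (adjusted p = 0.0164).

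Of 36 antioxidant and glutathione enzymes tested, 10 (27.8%) fell and 0 rose with testes 1 and 3, and 5 fell with the 3 testes. Of the 36, 26 were below 0 in both testes 1 and 3, against 1896 of all 4783 tested genes. Prdx4, the peroxiredoxin of the endoplasmic reticulum, was at -1.87, -2.47 and -3.09. The membrane glutathione transferases Mgst2 and Mgst1 fell 5.25-fold and 3.88-fold with the 3 testes (limma adjusted p = 0.0126 and 0.0406). For Mgst1, MEHP was well above background on only 1 of the 6 arrays, so the size of its fall is uncertain. Gstm5, a cytosolic glutathione transferase, was at -2.06, -1.59 and -1.97 and fell 3.67-fold (adjusted p = 0.0467). Where both channels were well above background on all 4 arrays, the median of 12 antioxidant genes was -0.70, against 0.14 over 1432 genes measured as well. These medians were -0.51 for 58 ribosomal protein genes, -0.46 for 47 respiratory chain genes and -0.36 for 19 translation factors. For other lists with falls they were nearer to or above 0, at -0.12 for 12 citric acid cycle genes, -0.15 for 8 glycolysis genes, -0.06 for 20 chaperones, 0.28 for 16 cell cycle genes and 0.42 for 9 fatty acid oxidation genes.

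MEHP and related phthalate esters are ligands of PPAR, a receptor that in liver turns on fatty acid oxidation. Of 24 PPAR alpha targets and fatty acid oxidation genes tested, 5 (20.8%) fell and 0 rose with testes 1 and 3. None of the 5 is among the 9 genes with both channels well above background on all 4 arrays, of which 0 fell. Fabp3, a fatty acid carrier, was at -1.94, -1.13 and -2.70 and was the 1 gene that passed with the 3 testes, at 3.79-fold lower (limma adjusted p = 0.0428). Acaa2 and Echs1, enzymes of beta-oxidation, fell 3.78-fold and 2.72-fold with testes 1 and 3 (adjusted p = 0.0133 and 0.0261). Etfa was lower by an approximate bound of 1.24-fold, with vehicle well above background on 2 of the 4 arrays. Its 2 arrays of testis 1 had opposite signs, at -1.98 and 0.84. Of 17 genes of cholesterol synthesis and SREBP targets, Fdps fell 2.86-fold (adjusted p = 0.0235), Ebp rose 2.16-fold (adjusted p = 0.0434), and 15 did not pass. The list's medians were 0.21 in testis 1 and -0.54 in testis 3, on either side of 0, and 0.77 in the testis at 1 µM.

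Of 43 collagen, laminin and other matrix genes tested, 9 (20.9%) rose and 1 fell, against 6.54% and 9.03% over all tested genes. Per testis the medians were 0.42, -1.58 and 0.18. Fbn2, a fibrillin of microfibrils, was at 1.85 and 1.52 and rose 3.22-fold (limma adjusted p = 0.0133). Col16a1, a fibril-associated collagen, was at 1.36 and 1.98 and rose 3.19-fold (adjusted p = 0.0147). A dimmer probe of Col16a1 had a mean of 0.96 and did not pass (adjusted p = 0.0938). Thbs2 rose 2.83-fold (adjusted p = 0.0179), and the proteoglycan Vcan 2.54-fold (adjusted p = 0.0248). The other genes that rose were Col3a1, Col1a1, Bgn, Lamb2 and Col4a1. With the 3 testes 0 of the 43 passed, and the list's median turned from -0.31 to 0.15 when each array was centred on its median and to 0.07 with normexp and loess.

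Of 14 insulin-like growth factor and imprinted growth genes, 3 (21.4%) rose and 0 fell with testes 1 and 3. Over all tested genes 6.54% rose and 9.03% fell. Igfbp5 was at 2.22 and 0.85 and rose 2.90-fold (limma adjusted p = 0.0261), Igf2r, the receptor that clears Igf2, was at 1.44 and 1.47 and rose 2.74-fold (adjusted p = 0.0193), and Igfbp3 was at 1.54 and 0.98 and rose 2.40-fold (adjusted p = 0.032). All 3 were below 0 in testis 2. Another probe of Igfbp3, well above background in both channels on all 4 arrays, was at 0.95 and 0.14 in testes 1 and 3. It did not pass (limma adjusted p = 0.304). Per testis the list's median was 0.39, -1.95 and 0.48. With normexp and loess its median over the 3 testes turned from -0.58 to 0.11. Igf2 itself was at 0.02 and -0.56 and did not pass.

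Gli1, a transcription factor that hedgehog signals induce, was at 1.30 and 2.17 in testes 1 and 3 and rose 3.32-fold (limma adjusted p = 0.0147). Gli1 was at -1.65 in testis 2 and at -0.04 at 1 µM. Of the 15 genes of inhibin, activin, TGF beta and hedgehog signalling, 2 (13.3%) rose and 2 (13.3%) fell. Over all tested genes 6.54% rose and 9.03% fell. Of 9 retinoid genes tested, Bco1 and Rxrg rose (22.2%), Aldh1a1 fell (11.1%), and 6 did not pass. Among the 6 was Cyp26b1, which degrades retinoic acid, at -0.62 in both testes. Rxrg, a retinoid receptor, rose 2.32-fold with testes 1 and 3 (adjusted p = 0.0356). It was at 0.19 and 2.80 on the 2 arrays of testis 3, with vehicle well above background on 1 of the 4 arrays.

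In the endoplasmic reticulum list, 2 of 34 genes (5.88%) rose and 3 (8.82%) fell with testes 1 and 3. These shares are near the 6.54% and 9.03% over all tested genes. Hyou1, a chaperone of the stressed reticulum, was at 1.01 and 2.24 and rose 3.08-fold (limma adjusted p = 0.0204), while Tmed3, Ssr2 and Sec61g, which carry proteins into and out of it, fell between 2.70-fold and 2.78-fold. Of 51 cell cycle and replication genes 6 (11.8%) fell and 2 (3.92%) rose, near or under the 9.03% and 6.54% over all tested genes. Gmnn, the inhibitor of replication licensing, was at -2.23, -2.37 and -1.20 and fell 3.82-fold with the 3 testes (adjusted p = 0.0424). Pole4 and Mcm6 fell 2.92-fold and 2.86-fold, and the kinetochore gene Cenpf rose 3.35-fold, with testes 1 and 3. For Cenpf the 2 arrays of testis 3 had opposite signs, at -0.48 and 3.43. Vehicle was well above background for it on 1 of the 4 arrays. Of 50 splicing genes 2 fell, Snrpb and Srsf3. Of 23 immediate early and stress genes 1 rose, Adm, at 2.26-fold (adjusted p = 0.0421). The 2 arrays of testis 3 had opposite signs for Adm, at -0.37 and 2.05.

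**Figure D5:**
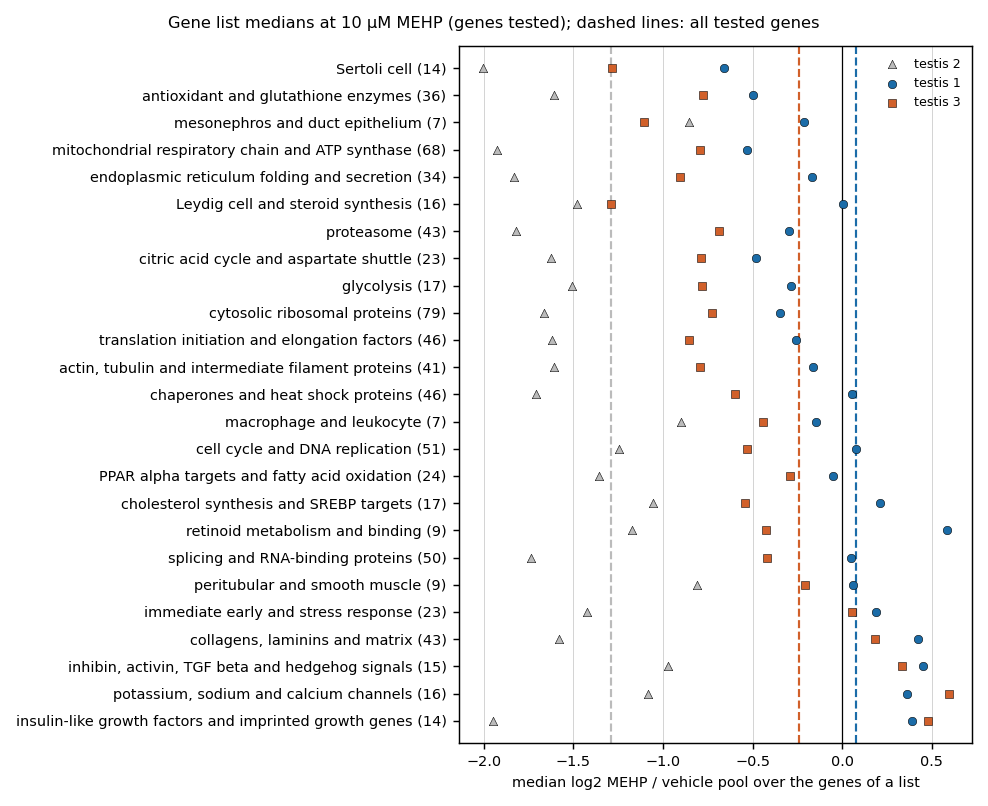
Median log2 ratio of 10 µM MEHP over the vehicle pool for each list with at least 7 tested genes (number in brackets), with 1 symbol per testis and dashed lines at the median of all 4783 tested genes in the same testis. The lists are ordered by the median of testes 1 and 3. Sertoli cell, antioxidant and respiratory chain genes lie left of the dashed lines in the 3 testes, and matrix and insulin-like growth factor genes right of 0 in testes 1 and 3 only.

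Of 23 germ cell genes 2 were tested, Mael at -0.79, -1.25 and -1.0 and Piwil2 at -0.58, -0.89 and -0.47, and neither passed. Ddx4, Pou5f1 and Kit were well above background on no MEHP array. The vehicle channel was nearly as dark, well above background on 1 of 6 arrays for Ddx4 and on 0 for Pou5f1 and Kit. Of 9 peritubular and smooth muscle genes, Mylk rose 3.45-fold (limma adjusted p = 0.0136) and Tagln fell 2.31-fold (adjusted p = 0.0333) with testes 1 and 3. Both were dim, with vehicle detected on 1 of the 4 arrays for Mylk and MEHP on 1 of the 4 for Tagln. Of 15 endothelial genes, Kdr, at 0.96 and 0.81, and Egfl7, at 0.30 and 0.40, were tested and did not pass. Of 7 macrophage and leukocyte genes, Lyz2 was at -1.39 and -1.47 in testes 1 and 3 (limma adjusted p = 0.02) and 6 did not pass. The approximate bound on the fall of Lyz2 was 1.09-fold. MEHP was well above background for it on no array and vehicle on 2 of the 4. The red blood cell genes Hbg1 and Hbe1 were at 0.48 and 1.63 in testis 1 and at 0.40 and 0.61 in testis 3.

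Of 7 genes of the mesonephros and duct epithelium, tissue next to the testis at explantation, 3 (42.9%) fell with testes 1 and 3. Over all tested genes 9.03% fell. Cdh1, E-cadherin, was at -1.13, -2.72 and -1.10 and fell 2.17-fold (limma adjusted p = 0.0429). Epcam and Krt8 were lower by approximate bounds of 1.19-fold and 1.18-fold. MEHP was not well above background on any array and vehicle on 2 of the 4, so neither channel measured them on the other 2. The part of these cells in the falls of other lists was not tested.

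The testis at 1 µM was low in some of the same lists and not in others, and it shares the pool with the testes at 10 µM. Its median was 0.05 over all tested genes, -0.18 for Sertoli cell genes, -0.14 for antioxidant genes and -0.18 for respiratory chain genes. For Leydig cell genes it was 0.69, with Star at 1.83, Fdx1 at 1.23 and Hsd17b3 at -0.11. For matrix genes it was 0.41. The doses were not compared by a test.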

How the data were processed

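Agilent Whole Rat Genome arrays were extracted by the authors with Agilent Feature Extraction, version 9.1 per the submitters' processing notes. The deposited log10 ratio of each spot is red over green after background subtraction and dye normalization. For each dye the deposited intensity columns give the foreground, background and processed signal, and the deposited flags, other than numbers on a scale, mark outliers and spots well above background. The authors' lists of fold change and p-value were not used.

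Ratios were converted to log2, turned to MEHP over vehicle, and averaged over spots and then over the 2 arrays of a testis. Control and outlier spots were left out. Testes were tested against 0 with lmFit and eBayes (limma 3.58.1, R 4.3.3, the data.table package, version 1.17.8), two-sided, and adjusted by Benjamini-Hochberg across every tested probe. Tables and figures used Python 3.11.15, pandas 2.3.3 and matplotlib 3.10.9. The fits were checked on simulated data. The p-values rest on the spread between these testes only, and precision is limited by how few arrays there are. The eBayes step draws each probe's variance toward a common value, so the standard error was much alike between genes. With the 3 testes it was 0.556 for Aldh1a1, with an SD of 0.03, and 0.585 for Irf7, with an SD of 2.54. The SD of a gene thus had little weight in its p-value.

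A list used the tested probe of each gene with the highest signal. Names came from the array, updated by accession for 10735 probes through RefSeq names of GRCr8. Named genes were the 10 largest rises and falls, with 1 direction on all arrays, that passed with the 3 testes (4 genes rose), the same for testes 1 and 3 among probes well above background in both channels, up to 4 members of each list past either threshold, and all tested Leydig genes. The members of 1 list are not reported here. Genes named outside this rule were chosen after their values were seen. The members and lists were chosen with earlier results of these data known. A fold lower than background on every MEHP array is a bound against the lowest signal well above background. It uses signals after normexp, loess and scaling between arrays, averaged over testes 1 and 3, also from arrays where vehicle was dim. It is thus approximate, and the limma p-value of such a gene belongs to its deposited ratio.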

Additional observations from a re-analysis of the deposited data

How the results depend on the processing

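Calls at an adjusted p of 0.05 with the 3 testes, 227 in all, dropped to 0 with normexp and loess, without background correction and with loess, without a filter on dim probes, with the first hybridizations only, with the pool given the spread of the treated testes, with slide as a block, and with scaling on the E1A spike-ins, which was chosen after seeing the data. They were 6 of 2669 probes where both channels were well above background on all 4 arrays of testes 1 and 3, 761 at an unadjusted p of 0.01, and 5213 with the error-weighted mean over arrays at p 0.01, the rule of the study's methods. Leaving out 1 testis gave 0 to 1689 calls, with 0 without testis 1 or testis 3 and 1689 without testis 2. With testes 1 and 3, 1689 calls became 970 with normexp and loess, 2751 with each array centred, 0 without the filter, 972 where both channels were well above background, 0 with the first hybridizations only, 2991 with the repeats only, 0 with the pool given that spread, and 952 with E1A scaling. Slide could not be a block for testes 1 and 3, which lie on different slides. No paired analysis was possible because the comparison is of testes with 1 pool. Another probe turned the direction of 1 of the 40 named genes called with the 3 testes, Rabif at -0.44 by a dim probe and at 2.22 by another, and of 2 of the 68 called with testes 1 and 3 only, Tns2 at -0.086 and Inhbb at 0.28. Under the other alternatives 0 of these named genes changed direction, while 9 of 28 list medians over the 3 testes did in at least 1. The largest rises and falls were chosen for 1 sign on all arrays. Leaving out a testis or using 1 hybridization could therefore not reverse them. Of the 76 named genes not called with the 3 testes, 17 changed sign in that fit in at least 1 alternative, other probes included. The cause of these differences was not tested. Dim MEHP signal limits testis 2 and the falls, since MEHP was well above background on 73 of the tested probes on both of its arrays.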
